A study of Mus musculus with 12 samples.

Results

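A set of 9 genes for cytokines and for the proteins that present or neutralise them were followed in IEC4.1 cells, a mouse intestinal epithelial cell line, before and after exposure to interferon-γ (IFN-γ). They were Il15, Il15ra, Il18, Il18bp, Il6, Il7, Csf1, Lif and Tnfsf10, taken by symbol from the mRNA tables of 12 libraries. All 9 were present among the 15002 genes of the tables. Their levels are given as FPKM, reads scaled to transcript length and to library size, which allows genes of different length to be set side by side.

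The study asked whether the long noncoding RNA Nostrill shapes the transcriptional response of these wild-type cells to IFN-γ. There were 4 groups of 3 libraries: cells transfected with a scrambled siRNA (siR_Ctrl), the same with IFN-γ (siR_Ctrl + IFN-γ), cells transfected with siRNAs to Nostrill (siR_Nostrill), and the same with IFN-γ (siR_Nostrill + IFN-γ). Per the study's methods, IFN-γ was given at 1 ng/ml for 4 h, after 24 h of transfection. The labels of all 12 libraries give a time of 24 h without saying which step it refers to. The methods speak of biological triplicates, but the sample labels do not say whether the 3 libraries of a group came from separate cultures, so p-values measure the spread between these libraries, which may be partly technical. siR_Nostrill is a pool of 3 duplexes and all groups derive from a single cell line. The sense strands of the pool are shown because every siR_Nostrill comparison rests on them.
Nostrill siRNA 1: ccugggaagaagcauuaau
Nostrill siRNA 2: ccaccaggaacacacaaau
Nostrill siRNA 3: gccuauaagucguucuaau

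Nostrill RNA was not analysed here, so whether and how far the siRNAs lowered it is not shown. Reads assigned to genes ranged from 17824306 to 19093204 per library. Exposure to IFN-γ was checked on Irf1, a transcription factor known as an early IFN-γ target. It rose from 50.9 ± 4.05 to 578 ± 15.6 FPKM in siR_Ctrl cells and from 57.3 ± 3.21 to 543 ± 6.96 FPKM in siR_Nostrill cells (mean ± SD, n = 3 each), which is 11.9-fold and 9.36-fold on reads (edgeR adjusted p = 8.50e-10 and 2.02e-09). The epithelial label was less well borne out. Of 13 epithelial markers 8 were in the tables, and 6 of these (Krt8, Krt18, Krt20, Vil1, Cdx1 and Cdx2) had a mean below 1 FPKM, with Cdx2 at 0 FPKM in every library of 3 groups. Krt19 and Tjp1 were detected, with group means of 1.35 to 2.06 and 6.82 to 10.4 FPKM. The summed level of these markers was 7.54 to 17.9 FPKM per library, against 2133 to 2692 FPKM for 9 mesenchymal markers, of which Vim made up the greater part. Immune markers (6 of 10 in the tables) summed to 1.37 to 2.60 FPKM, and endothelial markers (2 of 4 in the tables) to 0.01 to 0.18 FPKM. Among the immune markers, Cd4 and Ptprc were at 0 FPKM in all siR_Ctrl libraries. Cd68 and Csf1r were detected, with group means of 1.32 to 2.00 and 0.16 to 0.36 FPKM. The genes are therefore called cytokine genes of IEC4.1 cells here.

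IFN-γ, made mainly by T cells, NK cells and innate lymphoid cells, binds its receptor on epithelial cells and signals through JAK kinases to the GAS element of its target genes, and IRF1 then acts on interferon-stimulated response elements. Epithelial cells answer with antimicrobial effectors and with cytokines that speak back to lymphocytes. IL-15 is carried on the cell surface by IL-15Rα and presented in trans to intraepithelial lymphocytes and NK cells. IL-18 is stored as a precursor, cleaved by inflammatory caspases, and held in check by the secreted decoy IL-18BP. IL-7 maintains lymphocytes, IL-6 and LIF signal through the shared receptor gp130, CSF1 sustains macrophages, and TRAIL, encoded by Tnfsf10, triggers death receptors.

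The 250 bases before the annotated start were searched for 3 motifs on both strands: the GAS element (TTC, 3 bases of any kind, GAA), the core of the interferon-stimulated response element (GAAA, 2 bases of any kind, GAAA) and the NF-κB consensus. RefSeq promoter sequences (GRCm38.p6) were held for 7 of the 9 genes, all but Il15 and Il7. No GAS or response element match was found in any of the 7, including the windows before 2 starts of Il15ra that the table holds. These starts, at 11705293 and 11705712, lie inside the gene, whose first base is at 11705172, and the 250 bases before that one were searched only in part. These motifs were found in 7.02% and 2.98% of all 32851 promoter windows. NF-κB matches, found in 7.25% of all windows, were found for Il6, Csf1 and Lif. The match of Il6 lay 44 to 35 bases before the start, that of Csf1 154 to 145 bases and that of Lif 178 to 169 bases before it. The promoters of 3 genes are shown on the strand of the gene with NF-κB matches in capitals. Il6 and Il18bp are given as 2 genes that were higher with IFN-γ under both siRNAs, 1 with and 1 without a match, and Csf1 as the most abundant cytokine gene of the set. They lie at chr5:30012864-30013113 on the plus strand (Il6), chr3:107760470-107760719 on the minus strand (Csf1) and chr7:102018233-102018482 on the minus strand (Il18bp).
Il6: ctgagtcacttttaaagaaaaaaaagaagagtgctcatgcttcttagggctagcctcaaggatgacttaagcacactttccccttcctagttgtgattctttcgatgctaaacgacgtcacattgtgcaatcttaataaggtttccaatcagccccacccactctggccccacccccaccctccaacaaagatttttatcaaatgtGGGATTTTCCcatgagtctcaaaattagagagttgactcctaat
Csf1: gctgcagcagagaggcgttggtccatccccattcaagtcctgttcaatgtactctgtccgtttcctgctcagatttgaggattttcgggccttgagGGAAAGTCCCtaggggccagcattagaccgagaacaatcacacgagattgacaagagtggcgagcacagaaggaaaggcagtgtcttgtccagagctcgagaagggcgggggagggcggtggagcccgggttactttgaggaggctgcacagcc
Il18bp: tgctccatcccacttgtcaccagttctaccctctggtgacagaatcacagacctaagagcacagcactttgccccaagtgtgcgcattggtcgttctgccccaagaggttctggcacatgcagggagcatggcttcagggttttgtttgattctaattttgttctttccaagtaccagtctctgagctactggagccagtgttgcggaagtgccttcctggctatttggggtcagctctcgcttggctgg

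The matches are matches of letters only, and no binding was measured here.

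In the absence of IFN-γ the cytokine genes covered a wide range of levels. Csf1 was by far the highest, at 172 ± 21.2 FPKM in siR_Ctrl cells (SD, n = 3). Il15 followed at 9.52 ± 0.747 FPKM, then Lif at 7.03 ± 1.09 FPKM and Il7 at 6.08 ± 0.896 FPKM. The ranges of Lif and Il7 overlapped, whereas those of Csf1, Il15 and Lif did not in FPKM. In TPM, which brings every library to nearly the same total, those of Il15 and Lif overlapped (13.1 to 15.3 and 8.26 to 14.4). Il18 and Il18bp stood next, at 1.41 ± 0.211 and 1.40 ± 0.271 FPKM, with overlapping ranges. Il6, Il15ra and Tnfsf10 were the lowest, at 0.697 ± 0.215, 0.297 ± 0.106 and 0.0333 ± 0.00577 FPKM, and their ranges did not overlap one another. The order was the same in siR_Nostrill cells without IFN-γ.

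The first 4 places were kept with IFN-γ under both siRNAs. Il15ra moved from 8th place without IFN-γ to 5th place with it, and Il18 moved from 5th to 8th place. With IFN-γ, the ranges of Il15ra and Il18bp overlapped, as did those of Il6 and Il18. In siR_Nostrill + IFN-γ libraries those of Il18bp and Il6 overlapped too.

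**Figure D1:**
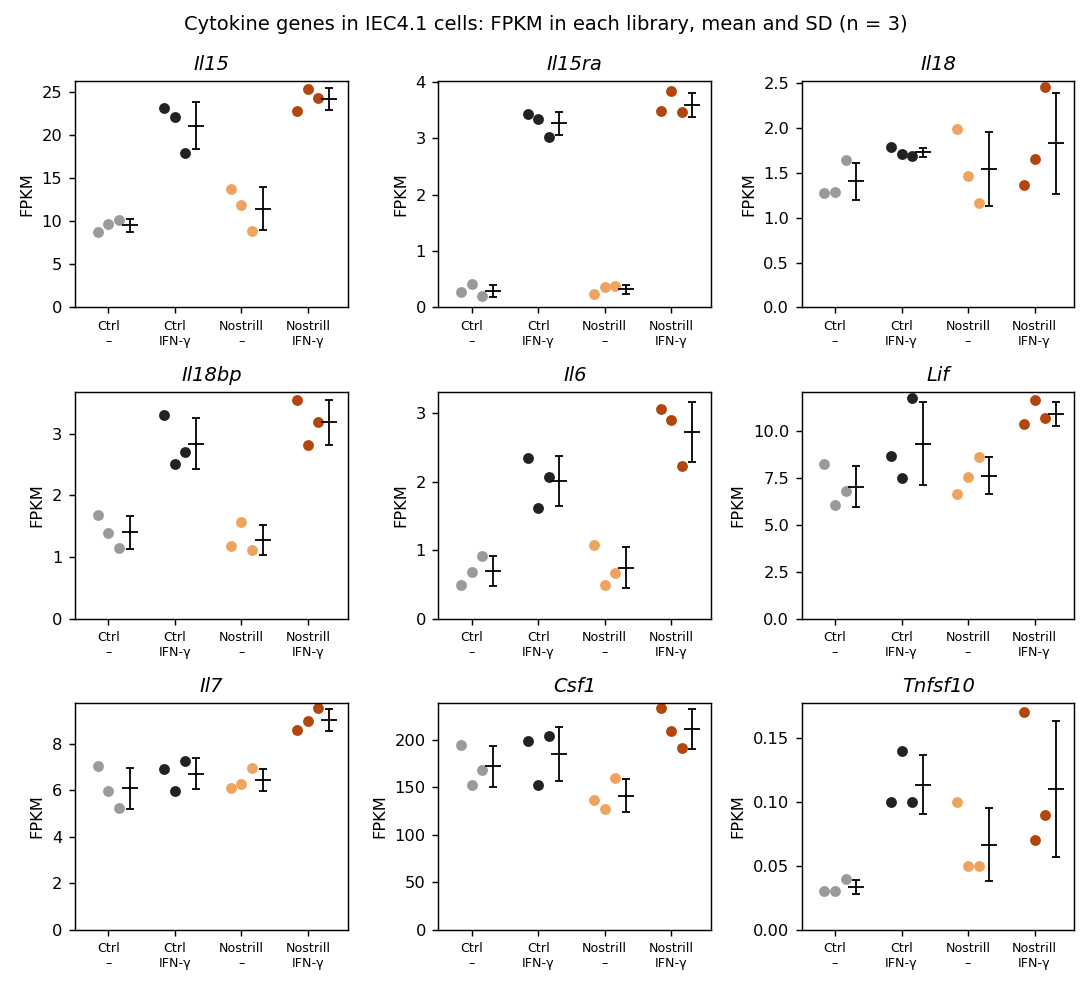
FPKM (linear axes starting at 0) of the 9 cytokine genes in each of the 12 libraries, with the mean and SD of each group of 3 beside the points; – marks libraries without IFN-γ. For Il15, Il15ra, Il18bp and Il6 every library with IFN-γ lay above every library without it under the same siRNA.

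The response to IFN-γ was first examined in siR_Ctrl cells, where it addresses which cytokine genes the line induces. Of the 8 genes tested, 4 rose: Il15ra, Il6, Il15 and Il18bp. None fell, and all 8 estimates were above 0. Their median log2 fold change was 0.59, beside −0.0085 over all 11900 genes tested, of which 4.71% were called higher. In siR_Nostrill cells the same 4 genes rose, together with Csf1 and Il7, so that 6 of the 8 were higher and none lower. The median was 0.83, beside −0.00056 over all genes, of which 5.24% were called higher. Calls were made with edgeR's quasi-likelihood test at a Benjamini-Hochberg adjusted p below 0.05 over all 11900 genes. Tnfsf10 had too few reads to be tested.

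Il15ra, which encodes the presenting receptor of IL-15 (gene ID 16169; GRCm38, chromosome 2, 11705172 to 11733985), showed the greatest change of the set. It was at 0.28, 0.41 and 0.20 FPKM in the siR_Ctrl libraries and at 3.42, 3.34 and 3.02 FPKM in the siR_Ctrl + IFN-γ libraries. Without IFN-γ this rested on 6 to 11 reads per library, and with it on 83 to 91 reads. The 3 treated libraries lay close together and far above the untreated ones. The log2 fold change was 3.45 ± 0.22 (SE), a 10.9-fold rise (edgeR adjusted p = 8.91e-07). In siR_Nostrill cells Il15ra went from 0.23, 0.36 and 0.38 FPKM to 3.48, 3.83 and 3.46 FPKM. The groups were again well apart, and the log2 fold change was 3.52 ± 0.22 (edgeR adjusted p = 6.88e-07).

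Il15 itself (gene ID 16168; chromosome 8, 82331624 to 82403252), the cytokine that sustains intraepithelial lymphocytes, was already well detected without IFN-γ. Its levels were 8.72, 9.64 and 10.2 FPKM in siR_Ctrl cells and 23.2, 22.2 and 18.0 FPKM with IFN-γ. The groups did not overlap. The log2 fold change was 1.19 ± 0.18, a 2.29-fold rise (edgeR adjusted p = 0.00119). In siR_Nostrill cells the levels were 13.7, 11.9 and 8.83 FPKM without and 22.8, 25.4 and 24.3 FPKM with IFN-γ. The untreated libraries were more scattered than in siR_Ctrl cells, and no treated library came near them. The log2 fold change was 1.06 ± 0.17 (edgeR adjusted p = 0.00257).

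Il6 (gene ID 16193; chromosome 5, 30013114 to 30019975), a pleiotropic inflammatory cytokine, was rare in these cells. Its levels were 0.49, 0.68 and 0.92 FPKM in siR_Ctrl cells, from 8 to 15 reads, and 2.34, 1.61 and 2.07 FPKM with IFN-γ, from 28 to 39 reads. Every treated library was above every untreated one. The log2 fold change was 1.58 ± 0.30 (edgeR adjusted p = 0.00730). In siR_Nostrill cells Il6 was at 1.08, 0.49 and 0.66 FPKM without and 3.06, 2.90 and 2.23 FPKM with IFN-γ. The groups did not overlap, and the log2 fold change was 1.83 ± 0.29 (edgeR adjusted p = 0.00184).

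Il18bp (gene ID 16068; chromosome 7, 102015074 to 102018232), which encodes the soluble antagonist of IL-18, was at 1.68, 1.38 and 1.14 FPKM in siR_Ctrl cells and at 3.30, 2.51 and 2.70 FPKM with IFN-γ. The groups did not overlap. On read counts the log2 fold change was 0.71 ± 0.18, a 1.63-fold rise (edgeR adjusted p = 0.0440), and this call was kept without siR_Ctrl replicate 1, siR_Nostrill replicate 1 or siR_Nostrill replicate 2 and lost without any of the other 9 libraries, with adjusted p between 0.0597 and 0.171. In siR_Nostrill cells Il18bp went from 1.17, 1.56 and 1.11 FPKM to 3.54, 2.81 and 3.19 FPKM. Again no library overlapped, and the log2 fold change was 1.07 ± 0.18 (edgeR adjusted p = 0.00342), a call kept whichever library was left out.

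The change of Il18bp was larger in FPKM than in reads. Mean FPKM was 2.03 times as high with IFN-γ in siR_Ctrl cells and 2.48 times as high in siR_Nostrill cells, against 1.63-fold and 2.10-fold on reads. The transcript length implied by reads and FPKM was 1509 to 1643 nt in the siR_Ctrl libraries and 1139 to 1301 nt in the siR_Ctrl + IFN-γ libraries. These ranges did not overlap, and for the other 7 genes tested the FPKM-based and read-based folds differed by at most 1.09 times under either siRNA. In siR_Nostrill cells the implied length was 1291 to 1656 nt without and 1215 to 1298 nt with IFN-γ, with ranges that met. Which Il18bp transcripts the reads came from was not tested.

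Il18 (gene ID 16173; chromosome 9, 50554700 to 50581841), the cytokine that Il18bp opposes, did not pass the test under either siRNA. It was at 1.28, 1.29 and 1.65 FPKM in siR_Ctrl cells and 1.79, 1.71 and 1.69 FPKM with IFN-γ, from 20 to 29 reads. These groups did not overlap in FPKM, but in TPM they did (1.76 to 2.38 without and 2.15 to 2.66 with IFN-γ). The log2 difference of 0.42 had a 95% interval of −0.12 to 0.96 (edgeR adjusted p = 0.50). In siR_Nostrill cells the levels were 1.99, 1.47 and 1.17 FPKM without and 1.37, 1.66 and 2.46 FPKM with IFN-γ. These overlapped widely, and the log2 difference of 0.26 had an interval of −0.28 to 0.79 (edgeR adjusted p = 0.524). It ranged from 0.05 to 0.48 when single libraries were left out. The levels in siR_Nostrill cells rested on 18 to 35 reads per library.

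Il7 (gene ID 16196; chromosome 3, 7572028 to 7613760), a survival factor for lymphocytes, was at 7.03, 5.96 and 5.25 FPKM in siR_Ctrl cells and at 6.90, 5.99 and 7.28 FPKM with IFN-γ. The groups overlapped, and the log2 difference was 0.21 with a 95% interval of −0.02 to 0.44 (edgeR adjusted p = 0.402). It ranged from 0.11 to 0.30 when single libraries were left out. In siR_Nostrill cells it rose from 6.09, 6.29 and 6.96 FPKM to 8.61, 8.97 and 9.53 FPKM. These groups did not overlap. The log2 fold change was 0.47 ± 0.10 (edgeR adjusted p = 0.0185). That call was lost, with adjusted p between 0.0650 and 0.0861, without siR_Nostrill replicate 1 or 2 or siR_Nostrill + IFN-γ replicate 2 or 3.

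Csf1 (gene ID 12977; chromosome 3, 107741048 to 107760469), the macrophage growth factor, was the most deeply measured gene of the set, with 8558 to 16160 reads per library. In siR_Ctrl cells it was at 195, 153 and 169 FPKM without and at 199, 153 and 204 FPKM with IFN-γ. The groups overlapped, and the log2 difference was 0.15 with a 95% interval of −0.10 to 0.40 (edgeR adjusted p = 0.620). It ranged from 0.10 to 0.25 when single libraries were left out, and was 0.22 and called with the gene length trend removed. In siR_Nostrill cells Csf1 went from 136, 128 and 160 FPKM to 233, 210 and 192 FPKM. The treated libraries were all above the untreated ones. The log2 fold change was 0.59 ± 0.11 (edgeR adjusted p = 0.00814), and the adjusted p was 0.0577 without siR_Nostrill replicate 2.

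Lif (gene ID 16878; chromosome 11, 4257568 to 4272514), a gp130 cytokine, missed the threshold under both siRNAs. It was at 8.21, 6.07 and 6.82 FPKM in siR_Ctrl cells and at 8.67, 7.49 and 11.8 FPKM with IFN-γ. The ranges overlapped, and the log2 difference was 0.46 with a 95% interval of 0.14 to 0.78 (edgeR adjusted p = 0.120). It was 0.28 without siR_Ctrl + IFN-γ replicate 3. In siR_Nostrill cells the levels were 6.66, 7.56 and 8.62 FPKM without and 10.4, 11.6 and 10.7 FPKM with IFN-γ. These ranges did not overlap. The log2 difference was 0.50 with an interval of 0.18 to 0.82 (edgeR adjusted p = 0.0659), and leaving out siR_Ctrl replicate 1 or siR_Ctrl + IFN-γ replicate 2 or 3 brought the adjusted p to between 0.0228 and 0.0478. Missing the threshold thus holds for the main fit. With the gene length trend removed Lif was called under both siRNAs. In siR_Nostrill cells it was also called by DESeq2 and with only the compared groups fitted, as given below.

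Tnfsf10 (gene ID 22035; chromosome 3, 27317077 to 27339665), which encodes the death ligand TRAIL, was at the limit of detection. It had 2.54 to 3 estimated reads in each siR_Ctrl library and 8.42 to 12.9 in each siR_Ctrl + IFN-γ library. Summed over a group and scaled to library totals, 9 and 30 reads give a ratio of 3.20 with an exact 95% counting interval of 1.48 to 7.67. In siR_Nostrill cells 17 and 28 reads give a ratio of 1.65 with an interval of 0.874 to 3.22, and the libraries with and without IFN-γ overlapped. These intervals cover counting error only and take no account of the spread between libraries.

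**Figure D2:**
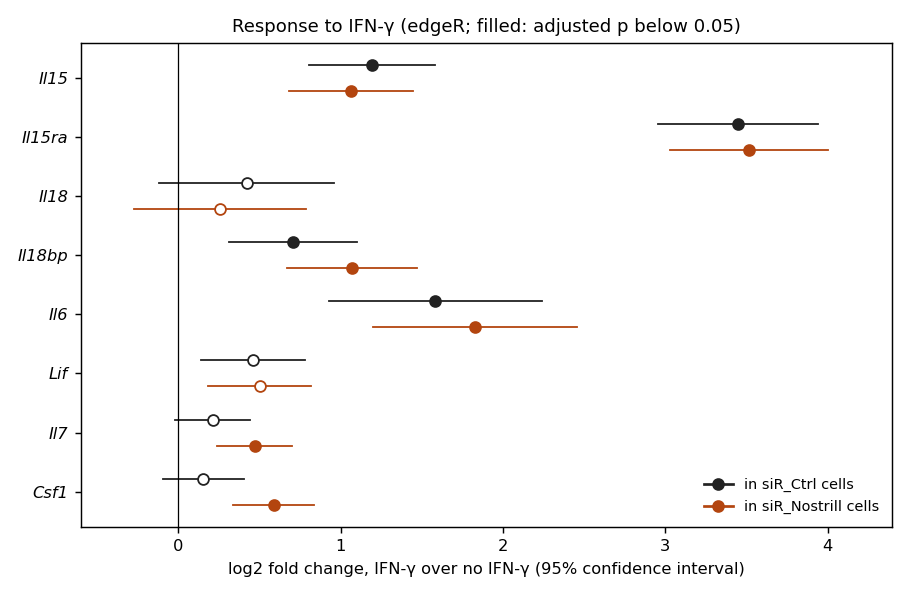
Log2 fold change with IFN-γ over no IFN-γ (x axis, points with 95% confidence intervals from edgeR, 3 against 3 libraries) of the 8 cytokine genes tested, in siR_Ctrl cells (black) and siR_Nostrill cells (brown); filled points have an adjusted p below 0.05. Il15ra stands at 3.45 and 3.52, well to the right of the other genes, and the intervals of Il18 include 0 under both siRNAs.

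Some of these values carry limits of the gene models. In the RefSeq table Il18 overlaps Bco2 by 515 nt and spans Tex12, and Il6, Il7 and Csf1 overlap the long noncoding genes A230098N10Rik, Gm16685 and Gm40121. No source used here says whether the counting used strand, so reads of overlapping genes cannot be told apart from those of the cytokine genes. The summed mesenchymal markers were at 2230 to 2449 FPKM without and 2569 to 2692 FPKM with IFN-γ in siR_Ctrl cells, without overlap, while in siR_Nostrill cells the sums overlapped (2133 to 2347 and 2283 to 2418 FPKM). The sum followed Vim, at a mean of 1620 and 1997 FPKM in siR_Ctrl cells (log2 difference 0.37, edgeR adjusted p = 0.0819), and the estimates of the other 8 markers were below 0. Its part in the cytokine values was not tested. In bulk RNA, fewer cells expressing a gene and less RNA per cell cannot be told apart.

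The balance between a cytokine and its partner was described by the FPKM ratio within each library. Il15ra stood at 0.0321, 0.0425 and 0.0196 of the level of Il15 in siR_Ctrl cells and at 0.147, 0.151 and 0.168 with IFN-γ. In siR_Nostrill cells the ratios were 0.0168, 0.0304 and 0.0430 without and 0.152, 0.151 and 0.142 with IFN-γ. Both the receptor and the cytokine were higher with IFN-γ, the receptor by more, and no treated library came near an untreated one. The log2 ratio was higher by 1.98 in siR_Ctrl and 2.05 in siR_Nostrill cells, on average by 2.02 (exact two-sided permutation p = 0.005 over 400 arrangements within siRNA, the smallest these allow; higher with IFN-γ in both).

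The ratio of Il18bp to Il18 was 1.31, 1.07 and 0.691 in siR_Ctrl cells and 1.84, 1.47 and 1.60 with IFN-γ. It was 0.588, 1.06 and 0.949 in siR_Nostrill cells and 2.58, 1.69 and 1.30 with IFN-γ. Within each siRNA every treated library exceeded every untreated one, although the margin was small. The log2 ratio was higher by 0.69 and 1.03, on average by 0.86 (exact two-sided permutation p = 0.005, the smallest of 400 arrangements). The shorter implied length of Il18bp enters this ratio. With estimated reads in place of FPKM, an alternative chosen after seeing the data, the average was 0.56 (exact permutation p = 0.025), with 0.30 in siR_Ctrl and 0.81 in siR_Nostrill cells, and siR_Ctrl replicate 1 equalled the highest siR_Ctrl + IFN-γ library at 2.50. The 2 ratios were the ratios computed, and Benjamini-Hochberg adjustment over them leaves both FPKM-based values at 0.005.

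**Figure D3:**
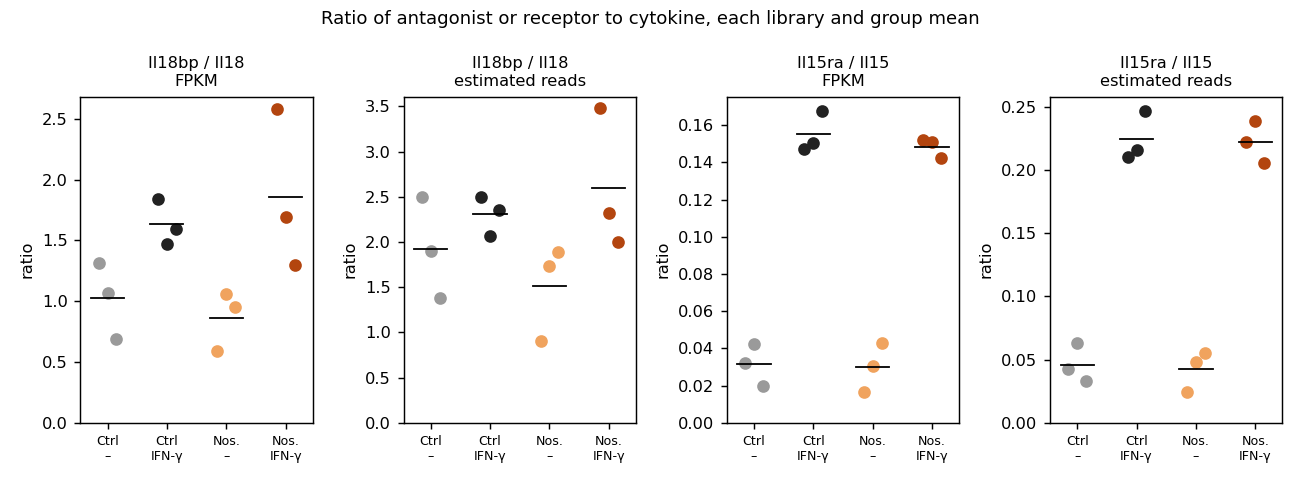
Ratio (linear axes starting at 0) of Il18bp to Il18 and of Il15ra to Il15 in each library, from FPKM and from estimated reads; points are libraries, bars are means of 3, Nos. is siR_Nostrill and – marks no IFN-γ. Il15ra to Il15 lies below 0.07 in every library without IFN-γ and above 0.14 in every library with it on both scales, while the points of Il18bp to Il18 overlap in siR_Ctrl cells on the read scale.

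The siRNA comparisons ask whether siRNAs to Nostrill moved the cytokine genes. Both IFN-γ responses and both siRNA comparisons use the same 4 groups, so their estimates are not independent. Without IFN-γ, none of the 8 genes tested differed between siR_Nostrill and siR_Ctrl in edgeR after adjustment, while 0.218% of all genes did, and DESeq2 called none of the 6 to which it gave an adjusted p, beside 2.35% of all genes with one. Unadjusted, 1 of the 8 was below 0.05, beside 13.8% of all genes. That gene was Csf1, with the 128 to 160 FPKM of the siR_Nostrill libraries overlapping the 153 to 195 FPKM of the siR_Ctrl libraries. Its log2 difference was −0.27 with a 95% interval of −0.51 to −0.02 (edgeR adjusted p = 0.355). With the gene length trend removed this difference was −0.16. Tnfsf10, which was not tested, was at 0.05 to 0.10 FPKM in siR_Nostrill and 0.03 to 0.04 FPKM in siR_Ctrl libraries, without overlap. This rested on only 4.05 to 8.04 and 2.54 to 3 estimated reads per library. The share of all genes whose libraries did not overlap between the siRNAs was not computed, with or without IFN-γ.

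With IFN-γ, none of the 8 passed either, beside 0.429% of all genes. All 8 estimates were above 0, as were 5879 of the 11900 genes. Il7 had the smallest p. It was at 6.90, 5.99 and 7.28 FPKM in siR_Ctrl + IFN-γ and at 8.61, 8.97 and 9.53 FPKM in siR_Nostrill + IFN-γ libraries. Those groups did not overlap. The log2 difference was 0.36 with a 95% interval of 0.13 to 0.59 (edgeR adjusted p = 0.129), and Il7 was the 1 gene of the 8 below 0.05 unadjusted, beside 14.5% of all genes. DESeq2 called it, with an adjusted p of 0.0372, as it did 5.65% of all genes to which it gave one. Il15ra also did not overlap between the siRNAs with IFN-γ, at 3.02 to 3.42 and 3.46 to 3.83 FPKM, but its log2 difference was 0.15 with an interval of −0.21 to 0.51 (edgeR adjusted p = 0.729).

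The size of the IFN-γ response was compared between siRNAs by the interaction term. No gene of the 8 passed, and 0% of all 11900 genes did. Unadjusted, 1 of the 8 was below 0.05, beside 10.7% of all genes, and DESeq2 called none of the 8 and 0% of all genes. The gene was Csf1, with a log2 response larger by 0.43 in siR_Nostrill cells and a 95% interval of 0.08 to 0.79 (edgeR adjusted p = 0.430). With the gene length trend removed the estimate for Csf1 was smaller, as given below, and Csf1 was then called with IFN-γ in siR_Ctrl cells too. For Il7 the difference was 0.26 with an interval of −0.07 to 0.58 (edgeR adjusted p = 0.430). The calls of Csf1 and Il7 in siR_Nostrill cells alone are therefore not shown to be a difference between the siRNAs. For Il15ra, Il15 and Il6 the differences were 0.07 (−0.72 to 0.86), −0.13 (−0.67 to 0.41) and 0.25 (−0.70 to 1.19) on the log2 scale, each interval including 0. The sign of each of these turned in some alternative fits, as given below.

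**Figure D4:**
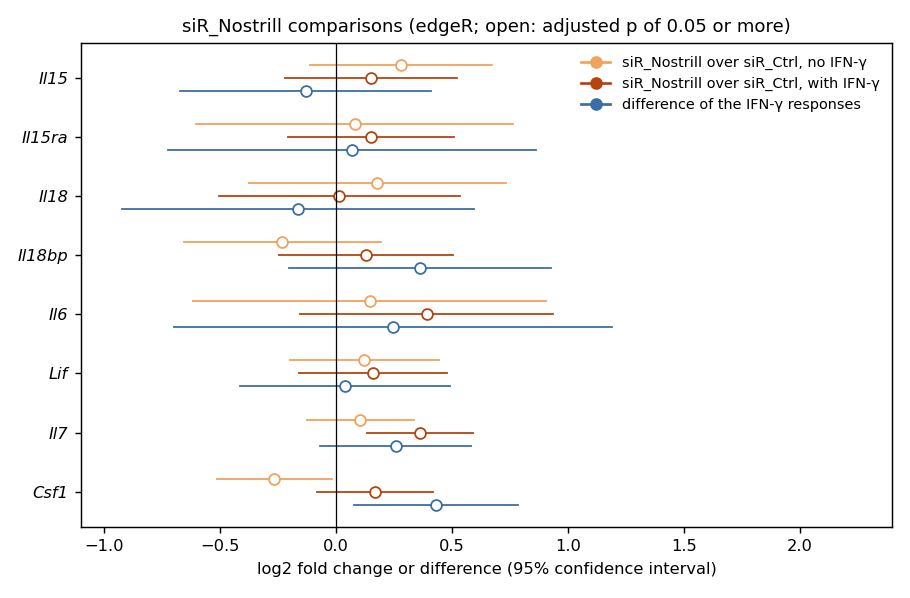
Log2 fold change of siR_Nostrill over siR_Ctrl without IFN-γ (light orange) and with IFN-γ (brown), and the difference of the 2 IFN-γ responses (blue), with 95% confidence intervals from edgeR for the 8 cytokine genes tested. All points are open, since no adjusted p was below 0.05, and the intervals of Csf1 without IFN-γ, Il7 with IFN-γ and Csf1 in the difference leave out 0.

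Among the receptors of these cytokines, 12 of 13 listed genes were in the tables and 11 were tested. Of these, 2 rose with IFN-γ under both siRNAs and none fell, beside the 4.71% and 5.24% of all genes called higher, with a median log2 change of −0.04 in siR_Ctrl and 0.53 in siR_Nostrill cells. Il18rap, the accessory chain of the IL-18 receptor, was at 15.6 to 16.9 FPKM in siR_Ctrl and 31.5 to 34.9 FPKM in siR_Ctrl + IFN-γ libraries. Its log2 fold change was 1.09 ± 0.08 (edgeR adjusted p = 3.67e-06), and 1.32 ± 0.08 in siR_Nostrill cells (edgeR adjusted p = 7.23e-07). The ligand-binding chain Il18r1 was at 0 FPKM in all siR_Ctrl libraries and at most 0.04 FPKM elsewhere. Thus 1 chain of the IL-18 receptor was abundant and higher with IFN-γ while the other was near 0 in every library.

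Tnfrsf11b, which encodes osteoprotegerin, a decoy that also binds TRAIL, was low but rose by 1.22 ± 0.30 and 1.97 ± 0.33 on the log2 scale (edgeR adjusted p = 0.0391 and 0.00278). The call in siR_Ctrl cells was lost in 9 of the 12 fits that left out 1 library, with adjusted p up to 0.158, and kept in those without siR_Ctrl + IFN-γ replicate 2, siR_Nostrill replicate 1 or siR_Nostrill + IFN-γ replicate 3. The shared chain Il6st, gp130, was at 16.4 ± 7.85 FPKM in siR_Ctrl cells and its log2 change with IFN-γ was 0.03 (edgeR adjusted p = 0.977), against 0.65 with a 95% interval of −0.07 to 1.37 in siR_Nostrill cells (edgeR adjusted p = 0.266). Tnfrsf23, a decoy TRAIL receptor of the mouse, was at 9.78 ± 2.55 FPKM, with log2 changes of −0.22 and 0.53 under the 2 siRNAs (edgeR adjusted p = 0.609 and 0.0778). Csf1r, the receptor of CSF1, was at 0.337 ± 0.159 FPKM in siR_Ctrl cells, and its log2 change with IFN-γ was −0.44 (edgeR adjusted p = 0.656). In siR_Nostrill cells Csf1r was at 0.31 to 0.40 FPKM without and 0.11 to 0.20 FPKM with IFN-γ, from 7 to 26 reads, with a log2 change of −1.20 and a 95% interval of −2.03 to −0.37 that did not pass (edgeR adjusted p = 0.0872). No receptor passed the adjusted threshold between siRNAs in either state or in the interaction. Without IFN-γ, Tnfrsf23 was at 5.82 to 7.66 FPKM in siR_Nostrill and 8.09 to 12.7 FPKM in siR_Ctrl libraries, which did not overlap, and its log2 difference was −0.54 with a 95% interval of −0.89 to −0.19 (edgeR adjusted p = 0.224). The interaction estimate for Tnfrsf23 was 0.75 with an interval of 0.25 to 1.25 (edgeR adjusted p = 0.430). Il18rap was at 13.8 to 14.5 FPKM in siR_Nostrill libraries without IFN-γ, below every siR_Ctrl library, with a log2 difference of −0.23 and an interval of −0.41 to −0.05 (edgeR adjusted p = 0.30). In that siRNA comparison without IFN-γ, 13.8% of all genes were below 0.05 unadjusted in edgeR.

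Of 9 genes for the processing of these cytokines, 6 were in the tables and 4 were tested. Casp4, an inflammatory caspase that cleaves gasdermin D, rose from 6.80 ± 0.224 to 27.6 ± 2.38 FPKM in siR_Ctrl cells and from 5.77 ± 0.908 to 29.6 ± 2.31 FPKM in siR_Nostrill cells (SD, n = 3 each; edgeR adjusted p = 1.25e-06 and 4.91e-07). Gsdmd, the pore through which mature IL-18 can leave the cell, rose by 0.87 ± 0.16 in siR_Ctrl cells (edgeR adjusted p = 0.00633). In siR_Nostrill cells its log2 change was 0.42 (edgeR adjusted p = 0.157), and the difference of −0.45 between the responses did not pass (edgeR adjusted p = 0.430). Casp1, which cleaves the IL-18 precursor, was below the count filter, with 1 to 2 reads per library without IFN-γ and 5 to 13 reads with it. The sheddases Adam10 and Adam17 were at 29.3 ± 8.55 and 15.4 ± 3.01 FPKM in siR_Ctrl cells, with log2 changes between −0.15 and 0.22 that did not pass.

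Of 28 other cytokine genes, 22 were in the tables and 12 had enough reads to be tested. One was lower with IFN-γ in siR_Ctrl cells: Clcf1, a gp130 cytokine, which fell by 0.47 on the log2 scale (SE 0.12, edgeR adjusted p = 0.0381), beside 0.748% of all genes called lower there. One was higher in siR_Nostrill cells: the alarmin Il33, which rose by 0.71 ± 0.17 (edgeR adjusted p = 0.0249), beside 5.24% of all genes called higher. In the respective other siRNA the log2 changes were −0.32 for Clcf1 and 0.46 for Il33 (edgeR adjusted p = 0.131 and 0.192). Tnfsf9, the ligand of the T cell receptor 4-1BB, was higher in siR_Nostrill + IFN-γ than in siR_Ctrl + IFN-γ, at 23.1 ± 0.598 against 15.5 ± 1.60 FPKM (SD, n = 3 each), a log2 difference of 0.52 ± 0.10 (edgeR adjusted p = 0.0468), where 0.429% of all genes were called. Without IFN-γ the log2 difference was 0.40 (edgeR adjusted p = 0.155). When single libraries were left out, these calls were lost in 9 of 12 fits for Clcf1, 4 for Il33 and 10 for Tnfsf9, with adjusted p up to 0.136, 0.113 and 0.187. Those of Il33 were the fits without siR_Nostrill replicate 1 or 3 or siR_Nostrill + IFN-γ replicate 2 or 3. The Tnfsf9 call was kept without siR_Ctrl replicate 1 or siR_Nostrill replicate 1 alone, and that of Clcf1 without siR_Ctrl replicate 1, siR_Ctrl + IFN-γ replicate 2 or siR_Nostrill replicate 3. Mif and Tgfb1 were the most abundant of the list, at 1727 ± 290.1 and 25.1 ± 2.23 FPKM in siR_Ctrl cells, and passed in none of the comparisons. The medians of the list were 0.20 and 0.09 for the 2 IFN-γ responses.

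For the 4 genes called in both IFN-γ comparisons, the genes of most similar pattern were found by Pearson's r of log2(FPKM + 1) over the 12 libraries, among 10513 other genes with a mean of at least 1 FPKM. Il15ra was closest to Gbp10, Irgm1 and Cxcl9 (r = 0.997, 0.996 and 0.996). Il15 was closest to Rchy1, Plek2 and Ccl2 (r = 0.981, 0.980 and 0.980), Il6 to Rtn4rl2, Traf3ip2 and Noc4l (r = 0.982, 0.973 and 0.971), and Il18bp to Il4ra, Gpat3 and Csrnp1 (r = 0.962, 0.961 and 0.960). These coefficients describe 12 points that share libraries and fall into those with and without IFN-γ, and 216 to 289 genes reached 0.9 for each.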

How the data were processed

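RNA of IEC4.1 cells was sequenced on the DNBSEQ platform and, per the study's methods, filtered with SOAPnuke v1.5.2 and aligned to GRCm38.p6 with HISAT2 v2.0.4 and Bowtie2 v2.2.5. The deposited tables hold, for each library, an estimated count, an FPKM and a TPM value per gene. The authors' estimated counts were not normalized, and the counting tool is not named in any source used here. The authors scaled FPKM and TPM to transcript length and library size, and TPM was used only for an alternative and where it is named. Summed FPKM differed between libraries, from 570935 to 794809, while summed TPM was close to 1000000 in each. Ranges that were apart in FPKM therefore need not be apart in TPM. Columns were read by name.

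Estimated counts were rounded, filtered (filterByExpr), TMM-normalized and fitted in edgeR 4.0.16 (limma 3.58.1, R 4.3.3) with 1 mean per group over all 12 libraries. The 5 comparisons were both IFN-γ responses, both siRNA comparisons and their interaction, with Benjamini-Hochberg adjustment over 11900 genes and a threshold of 0.05. The 2 ratios used log2 FPKM with a pseudocount of 0.1 and an exact permutation test within siRNA. Alternatives included DESeq2 1.42.0, limma on log2 FPKM, other scaling and filters, removal of a gene length trend, a replicate block and leaving out each library. Scripts were tested on simulated data. All 9 genes are named. From the lists of receptors, processing genes and other cytokines, genes called in any comparison and the 3 most abundant are named; Il18r1, Csf1r and Casp1 were added after their values were seen. Some items are not reported here. The genes and lists were chosen with earlier results of these data known.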

Additional observations from a re-analysis of the deposited data

How the results depend on the processing

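Il15, Il15ra and Il6 kept their direction and their call with IFN-γ under both siRNAs in every alternative run. In siR_Ctrl cells 4 genes were called higher, and 3 to 5 under the alternatives; Il18bp was the unstable one, with adjusted p of 0.0523 without a count filter, 0.144 with only the compared groups fitted, and 0.113 with the gene length trend removed, which also called Csf1 (0.0245) and Lif (0.00106). In siR_Nostrill cells 6 were called, and 4 to 7 under the alternatives, where Lif was added by DESeq2 (0.0262), by fitting only the compared groups (0.00948) and by removing the length trend (0.00589). For siR_Nostrill against siR_Ctrl with IFN-γ, the count of called genes went from 0 to 1 with DESeq2 and to 1 with the length trend removed; both called Il7, the latter with an adjusted p of 0.0229, in fits that called 601 of 10633 and 1540 of 11900 genes. The cause was not tested. DESeq2 gave no adjusted p for Il18 and Il6 in either siRNA comparison.

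Library deviations correlated with gene length (absolute Spearman rho 0.193 to 0.782 across genes, which are not independent replicates). Of the 5 comparisons, the siRNA difference without IFN-γ and the interaction followed length most (rho −0.654 and 0.647). With the length trend removed, Csf1 went from −0.27 to −0.16 in the former and from 0.43 to 0.28 in the latter (adjusted p = 0.170 and 0.148), and estimates changed sign for Il15ra (−0.061), Il18 (−0.10) and Il6 (−0.10) in siR_Nostrill against siR_Ctrl without IFN-γ, and for Il15 (0.24), Il18 (0.22) and Lif (−0.12) in the interaction. Leaving out 1 library at a time also turned signs of estimates near 0. Without IFN-γ the siRNA differences ranged from −0.088 to 0.40 for Il15ra, −0.041 to 0.38 for Il18 and −0.24 to 0.40 for Il6, and with IFN-γ from −0.17 to 0.16 for Il18. The interaction ranged from −0.076 to 0.22 for Lif, −0.25 to 0.24 for Il15ra, −0.0075 to 0.63 for Il6, −0.31 to 0.042 for Il15 and −0.37 to 0.055 for Il18. None of these passed the test in any of the fits.

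When single libraries were left out, the difference in log2 ratio between libraries with and without IFN-γ ranged from 0.73 to 0.97 for Il18bp to Il18 and from 1.86 to 2.15 for Il15ra to Il15. Over all genes, the counts of calls varied widely between fits. For the 2 IFN-γ responses 649 and 807 genes were called, against 341 and 1997 with only the compared groups and 1320 and 2257 with the length trend removed. A count out of 8 cytokine genes has little room to move, so its stability cannot be compared with that over all genes. For the siRNA comparisons without and with IFN-γ, 26 and 51 genes were called, against 257 and 601 with DESeq2, 404 and 1540 with the length trend removed, and 0 and 0 with only the compared groups. With 1 library left out they ranged from 489 to 589 and 491 to 1138 for the IFN-γ responses and from 0 to 37 and 0 to 72 for the siRNA comparisons. No gene was called without siR_Ctrl replicate 1, any siR_Nostrill replicate or siR_Nostrill + IFN-γ replicate 2 in the comparison without IFN-γ, nor without siR_Nostrill + IFN-γ replicate 1 or 3 in that with it.

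Replicate numbers showed no clear pairing of the libraries. The 18 same-numbered pairs had correlations of their deviations from group means from −0.49 to 0.73, of which 8 were over 0.1. For the 36 pairs with other numbers they ran from −0.81 to 0.77, of which 14 were over 0.1. In all, 5 of 12 libraries correlated best with their own number. These deviations also followed gene length, and whether same-numbered libraries shared a culture was not tested. With a replicate block, 3 cytokine genes were called in siR_Ctrl cells (Il18bp adjusted p = 0.0645), 6 in siR_Nostrill cells and 0 in the other comparisons. Estimates of Il15ra, Il6, Il18 and Tnfsf10 without IFN-γ rest on few reads.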
